A study of Mus musculus with 16 samples.

Results

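Amino acid carriers and their partners in 7 solute carrier families were read in liver and quadriceps of mice given a virus labelled as carrying either Yap1S5A or green fluorescent protein (GFP). They are the 36 genes, of 13701 in the deposited count table, whose symbols start with Slc1a, Slc3a, Slc6a, Slc7a, Slc36a, Slc38a or Slc43a and a number. Family Slc1 has 5 of them, Slc3 has 2, Slc6 has 6, Slc7 has 9, Slc36 has 3, Slc38 has 8 and Slc43 has 3. The rule used symbols and no measured value, though this group of genes was picked with earlier results of these data known. The symbols also take in Slc7a6os, a neighbour of Slc7a6 that is no carrier, and some genes without a settled substrate.

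All libraries were made from total RNA of frozen bulk tissue of male C57BL6/J mice aged 12 to 14 weeks, 7 days after infection with an adeno-associated virus (AAV). Each combination of tissue and vector has 4 libraries, 16 in all. The genotype labels are AAV-DJ8-TGB-Yap1S5A and, for the controls, AAV-DJ8-TGB-EGFP, so the control mice carry an AAV too. The labels do not spell out TGB. Yap1S5A is Yap1, a transcriptional coactivator, with serines changed to alanine so that Hippo kinases no longer restrain it, and the series describes its expression as hepatic. The labels' treatment text describes sham surgery and partial hepatectomy instead, which conflicts with titles, genotypes and design, and the groups used here follow the titles. Counts of Yap1 itself went against the label in liver, where its log2 fold change was -0.55 ± 0.12 (SE, edgeR adjusted p = 0.00089), and in quadriceps its value was 0.26 ± 0.10 (adjusted p = 0.11). The groups are therefore named by their labels throughout.

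Total counts were 13817718 to 19215472 per library. The 36 genes took 47463 to 68236 of the counts of a liver library and 12615 to 16934 of those of a quadriceps library. Summed hepatocyte markers ran from 136675 to 156536 CPM in livers and from 15.1 to 172 CPM in quadriceps, and summed skeletal muscle markers from 185885 to 293520 CPM in quadriceps and from 14.4 to 334 CPM in livers, so the tissue labels were borne out. CPM here are counts scaled to library sizes adjusted by the trimmed mean of M values (TMM) over all 16 libraries. In bulk tissue, fewer cells of a type and less RNA per cell cannot be told apart.

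Amino acids cross the plasma membrane through carriers that differ in substrate, in dependence on sodium, and in whether they import or exchange. Slc7 light chains of the exchanger type reach the surface only when bound to an Slc3 heavy chain, system A and system N carriers of family Slc38 take up alanine and glutamine with sodium, and Slc1 holds the glutamate carriers. Liver is known as the organ that draws gluconeogenic amino acids and ammonia from portal blood, while glutamine release is a known task of muscle, and exchangers such as Slc7a5 with Slc3a2 are known to feed leucine to the kinase mTORC1.

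Of the 5 carriers with the highest level in each control tissue, Slc38a3 and Slc38a4 were in both. Levels between genes are given per kb of exonic length. In GFP-labelled livers the glutamine and histidine carrier Slc38a3 had the highest level, 696 ± 68.6 CPM per kb (SD, n = 4), which was 50.2% ± 1.66 of the summed level of the 36 genes. The system A carrier Slc38a4 followed at 273 ± 19.8 CPM per kb, the GABA and taurine carrier Slc6a13 at 100.1 ± 8.61, the cationic amino acid carrier Slc7a2 at 71.05 ± 17.2, and the betaine carrier Slc6a12 at 43.1 ± 3.38 CPM per kb. These neighbours in the order were separated by more than their SDs. The heavy chain Slc3a1 was next at 38.5 ± 7.36 CPM per kb, and its SD spanned the gap to the mean of Slc6a12.

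In GFP-labelled quadriceps no single carrier dominated. Slc38a4 had 33.99 ± 7.51 CPM per kb, the system A carrier Slc38a2 30.4 ± 2.67, the creatine carrier Slc6a8 27.4 ± 0.985, the taurine carrier Slc6a6 23.04 ± 1.27 and Slc38a3 20.5 ± 5.72 CPM per kb. The ranges of mean ± SD overlapped between Slc38a4 and Slc38a2, between Slc38a2 and Slc6a8, and between Slc6a6 and Slc38a3, so only Slc6a8 and Slc6a6 were apart. The summed level of the 36 genes was 1385 ± 91.0 CPM per kb in GFP-labelled livers and 228 ± 11.8 in GFP-labelled quadriceps. Between these 2 tissues 28 of 35 tested members differed (edgeR quasi-likelihood test, adjusted p under 0.05), 17 higher in liver and 11 higher in quadriceps, beside 78.8% of all 12865 genes tested (40% higher in liver, 38.8% lower), so the share of members, 80%, was near that of all genes. Libraries of the tissues did not overlap for 26 of the 35, beside 74.3%, and 26 were called with a difference of at least 2-fold, beside 55.3%. The median log2 difference, liver over quadriceps, was 0.72 among members and 0.03 among all genes.

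Members at the bottom of one tissue were often present in the other. Slc3a1, Slc6a12, Slc6a13 and Slc1a2 were read almost only in livers, with a mean level of 11.4 ± 1.88 CPM per kb for Slc1a2 in control livers and counts of 0, 6, 1 and 0 in the 4 control quadriceps. The neutral amino acid carrier Slc6a17, known from synaptic vesicles, had counts of 0, 0, 1 and 0 in control livers and 26, 15, 28 and 19 in control quadriceps. Slc1a1, a glutamate carrier known from neurons and kidney, had 0, 0, 2 and 0 counts in control livers and 42, 29, 26 and 35 in control quadriceps. Exons of 4430402I18Rik on the other strand cover 32.8% of its exonic bases, and that gene had means of 1.32 CPM in control livers and 1.01 CPM in control quadriceps. Slc7a4, a member without a shown substrate, was nearly confined to liver among the control libraries, with 30, 20, 29 and 19 counts there and 0, 1, 0 and 0 in quadriceps. Slc6a8 was 1.32 ± 0.120 CPM per kb in control livers, against 27.4 in control muscle, where creatine is stored.

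**Figure D1:**
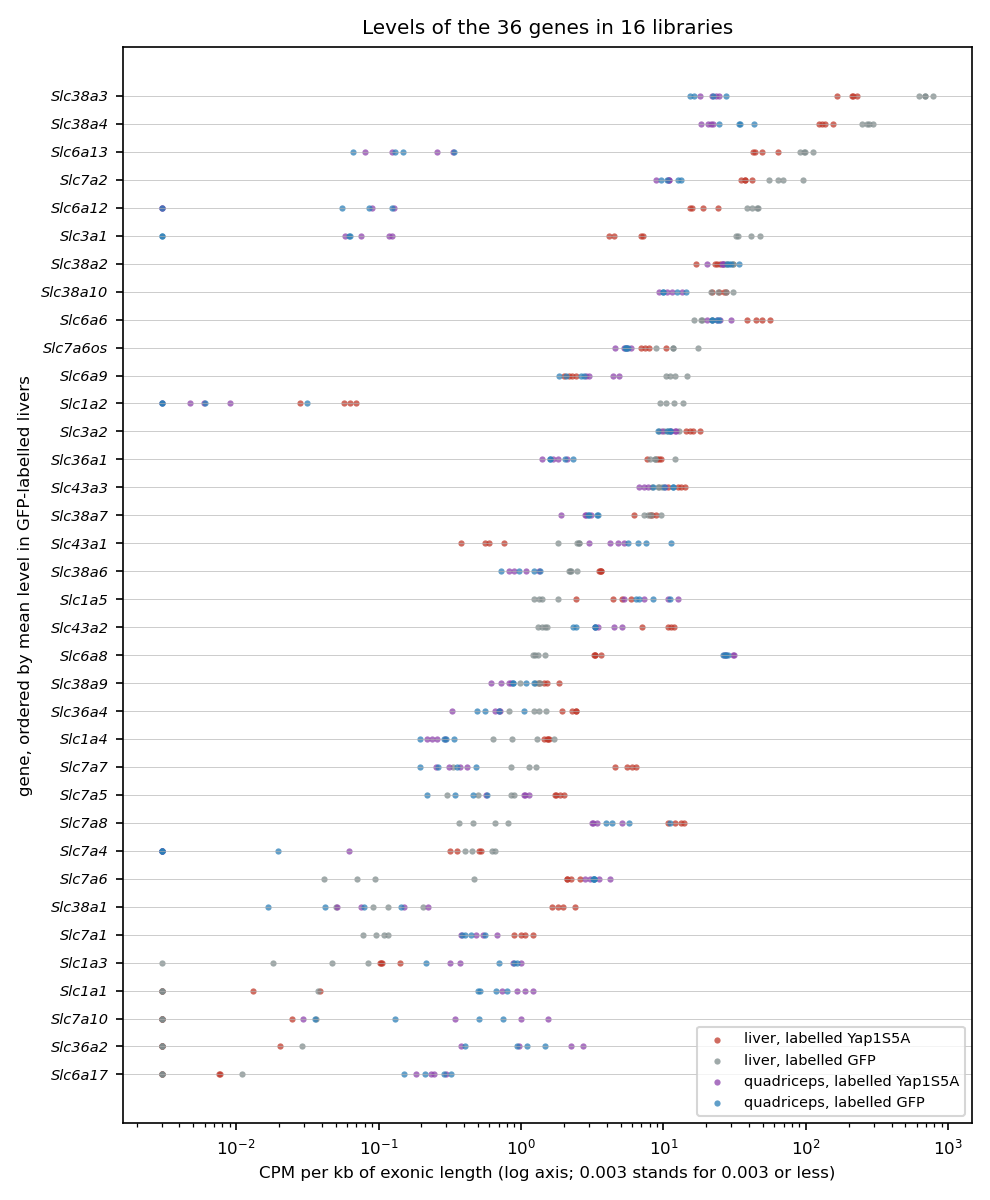
Level of each of the 36 genes in each of the 16 libraries, in CPM per kb of exonic length on a log axis, with 1 dot per library coloured by tissue and vector label and genes ordered by their mean in GFP-labelled livers. Slc38a3 stands at 696 ± 68.6 CPM per kb at the top of GFP-labelled livers, and 205 ± 28.1 in Yap1S5A-labelled livers.

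In liver members of the set changed in both directions. Of 31 members tested in livers, 25 differed between the vectors at an adjusted p under 0.05, beside 63.6% of all 12818 genes tested. Of these, 14 rose, beside 33.3% of all genes, and 11 fell, beside 30.3%. Libraries of the 2 groups did not overlap for 24 of the 31, beside 57.7% of all genes, and 16 of the 31 were called and changed at least 2-fold, beside 34.5%. The median log2 fold change was 0.34 among members and 0.03 among all genes, and the median absolute value was 1.20 and 0.66. Over all genes tested in liver, the log2 fold change went up with gene length (Spearman correlation 0.32). Summed over the 36 genes, the level was 1385 ± 91.0 CPM per kb in control livers and 658 ± 42.8 under the Yap1S5A label, since the most abundant carriers were among those that fell. Too few counts for a test in liver were found for Slc1a1, Slc1a3, Slc36a2, Slc6a17 and Slc7a10.

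The exchanger light chains of family Slc7 that were tested all rose, 4 of 4, beside 33.3% of all genes, and Slc7a10 was not tested. Slc7a6 passed the filter on low counts through its Yap1S5A-labelled libraries alone, so it could not have been called lower. Slc7a8, which with Slc3a2 exchanges neutral amino acids, was at 1.48, 3.29, 2.65 and 1.84 CPM in the 4 GFP-labelled livers. It was at 43.7, 53.3, 56.3 and 48.9 CPM in the 4 Yap1S5A-labelled livers. Its log2 fold change of 4.44 ± 0.21 (adjusted p = 8.23e-10), a 21.8-fold rise, was the largest among the members called higher in liver, and each Yap1S5A-labelled library lay above all controls.

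Slc7a6, a light chain that trades cationic for neutral amino acids, stood at 0.353, 0.263, 1.74 and 0.154 CPM in controls, where the third library was far above the other 3. In Yap1S5A-labelled livers it was at 7.91, 8.38, 7.899 and 9.67 CPM, a log2 fold change of 3.74 ± 0.45 (adjusted p = 7.96e-06). Its relative Slc7a7, known from intestine, kidney and macrophages, was at 2.12, 3.22, 0.837 and 2.84 CPM in controls and 11.5, 16.1, 15.1 and 13.8 CPM in Yap1S5A-labelled livers, without overlap. The change of Slc7a7 was 2.65 ± 0.28 on the log2 scale (adjusted p = 1.71e-06). Slc7a5, the light chain known for leucine uptake, was at 1.06, 3.15, 1.74 and 2.997 CPM in controls and 6.04, 6.201, 6.56 and 7.08 CPM in Yap1S5A-labelled livers. That is 1.54 ± 0.28 (adjusted p = 0.000243), again with no overlap of the groups.

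The heavy chains moved apart. Slc3a2, the partner of these 4 light chains, was at 27.4, 37.8, 32.02 and 30.04 CPM in GFP-labelled livers and 42.7, 53.5, 45.6 and 47.4 CPM in Yap1S5A-labelled livers, so it rose by 0.58 ± 0.13 (adjusted p = 0.0017) with every Yap1S5A-labelled library above the controls. Slc3a1, the heavy chain of the cystine and dibasic amino acid exchanger of kidney and intestine, went the other way. It was at 76.6, 110.3, 74.03 and 94.4 CPM in controls and at 15.97, 16.5, 9.64 and 10.3 CPM in Yap1S5A-labelled livers, a log2 fold change of -2.75 ± 0.21 (adjusted p = 4.68e-08). Exons of Prepl on the other strand cover 26.3% of the exonic bases of Slc3a1, and Prepl was at -0.54 ± 0.14. Whether the counting used strand is not stated, so reads of the shared stretch cannot be assigned to either gene.

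**Figure D2:**
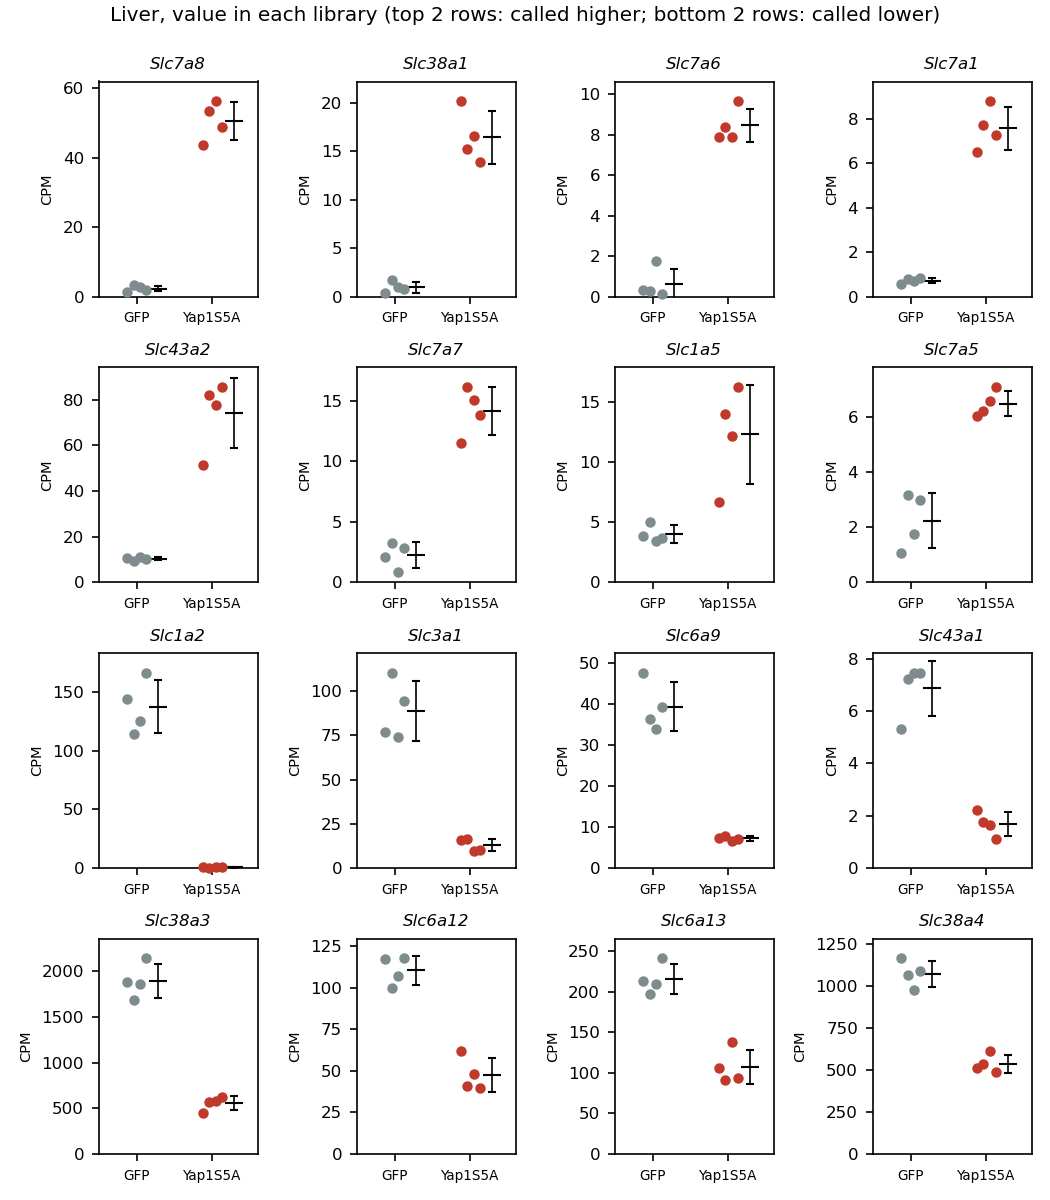
CPM in each liver library for the 8 members with the largest rise and the 8 with the largest fall among those called with a mean of at least 5 CPM in 1 group. Each dot is a library, the black mark is the group mean with its SD (n = 4), and the axes start at 0. In none of the 16 panels do the 2 groups overlap.

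Of the cationic amino acid carriers, Slc7a1 rose and Slc7a2 fell. Slc7a1, the widely expressed arginine and lysine carrier that liver is known to lack almost entirely, was at 0.565, 0.788, 0.698 and 0.845 CPM in GFP-labelled livers. It reached 6.49, 7.703, 8.79 and 7.27 CPM in Yap1S5A-labelled livers, a log2 fold change of 3.39 ± 0.24 (adjusted p = 2.09e-08). With its first control library under the filter on low counts, Slc7a1 passed only with Yap1S5A-labelled libraries and could hardly have been called lower. Slc7a2, the carrier of adult hepatocytes, was at 546, 435, 749 and 503 CPM in controls and 292, 327, 275 and 294 CPM in Yap1S5A-labelled livers, a log2 fold change of -0.90 ± 0.17 (adjusted p = 0.000296). Per kb, Slc7a1 was still a minor form, at 0.148% ± 0.048 of Slc7a2 in control livers and 2.78% ± 0.47 in Yap1S5A-labelled livers.

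Relatives also moved in opposite directions in family Slc43, whose first members let large neutral amino acids through without sodium. Slc43a2 was at 10.7, 9.46, 11.02 and 10.2 CPM in GFP-labelled livers and 51.5, 82.1, 77.6 and 85.6 CPM in Yap1S5A-labelled livers, a log2 fold change of 2.85 ± 0.16 (adjusted p = 3.53e-09). Slc43a1 was at 5.301, 7.23, 7.47 and 7.45 CPM in controls and 2.21, 1.74, 1.64 and 1.101 CPM in Yap1S5A-labelled livers, -2.02 ± 0.24 on the log2 scale (adjusted p = 5.74e-06). Neither pair of groups overlapped. Per kb, Slc43a2 was 62.5% ± 13.3 of Slc43a1 in control livers and 1976% ± 903 in Yap1S5A-labelled livers. Slc43a3, a purine base carrier that takes no amino acids, rose by 0.49 ± 0.13.

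Among system A and system N carriers, 3 fell and Slc38a1 rose. Slc38a3, the system N carrier of hepatocytes, was at 1882, 1691, 1867 and 2144 CPM in GFP-labelled livers and 449, 574, 585 and 628 CPM in Yap1S5A-labelled livers, a log2 fold change of -1.75 ± 0.15 (adjusted p = 1.61e-07). Its share of the summed level went from 50.2% ± 1.66 to 31.1% ± 3.08. Slc38a4, the liver form of system A, was at 1166, 1065, 978 and 1092 CPM in controls and 512, 539, 613 and 489.6 CPM in Yap1S5A-labelled livers, -0.98 ± 0.14 on the log2 scale (adjusted p = 2.26e-05), and had a share of 19.8% ± 1.67 and 20.8% ± 1.45.

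Slc38a2, the system A form known to be induced when amino acids are scarce, differed little. It was at 125, 142, 143 and 129 CPM in controls and 78.1, 115, 109.9 and 107 CPM in Yap1S5A-labelled livers. The log2 fold change of -0.38 ± 0.14 (adjusted p = 0.027) was no longer called without control replicate 2 (adjusted p = 0.062) or 3 (0.053) and with upper-quartile scaling (0.080). Slc38a1, the system A form of brain and placenta, was at 0.424, 1.71, 0.977 and 0.768 CPM in controls and 20.2, 15.2, 16.5 and 13.9 CPM in Yap1S5A-labelled livers. Its log2 fold change was 4.07 ± 0.29 (adjusted p = 2.88e-08), though per kb it was only 0.989% ± 0.324 of Slc38a3 in Yap1S5A-labelled livers, from 0.0172% ± 0.0111 in controls. The first control library was under the filter on low counts. Slc38a1 thus passed only with Yap1S5A-labelled libraries and could hardly have been called lower.

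The largest fall of any member in liver was that of the glutamate carrier Slc1a2, known in liver from the hepatocytes around the central vein that make glutamine. It had 144, 115, 126 and 167 CPM in GFP-labelled livers and 0.688, 0.339, 0.845 and 0.766 CPM in Yap1S5A-labelled livers, where the counts were 14, 7, 17 and 16. The log2 fold change was -7.67 ± 0.23 (adjusted p = 4.13e-11). With the second Yap1S5A-labelled library under the filter on low counts, Slc1a2 passed only with GFP-labelled libraries and could hardly have been called higher. All 10 of 10 pericentral hepatocyte genes fell in the same livers, and their summed level was 6753 to 9938 CPM in GFP-labelled and 410.3 to 615 CPM in Yap1S5A-labelled libraries. Of 11 periportal hepatocyte genes 9 fell and 1 rose. Over all genes tested in liver, 30.3% fell and 33.3% rose. The neutral amino acid exchanger Slc1a5, known as a glutamine importer of dividing cells, was at 3.89, 5.06, 3.42 and 3.69 CPM in controls and 6.68, 14.05, 12.2 and 16.3 CPM in Yap1S5A-labelled livers, the first library being the lowest. It rose by 1.62 ± 0.25 (adjusted p = 5.65e-05). Its relative Slc1a4 was not called, at 0.45 ± 0.26.

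Family Slc6 had members that fell and members that rose. The glycine carrier Slc6a9 was at 47.7, 36.4, 33.98 and 39.3 CPM in GFP-labelled livers and 7.42, 7.95, 6.56 and 7.08 CPM in Yap1S5A-labelled livers, a log2 fold change of -2.43 ± 0.15 (adjusted p = 5.81e-09). Other genes on the opposite strand, B4galt2, Ccdc24 and Gm17114, together cover 47.5% of its exonic bases. Values are given here for B4galt2 alone. B4galt2 rose by 2.35 ± 0.44 in liver while its mean went from 0.394 to 1.99 CPM, so its counts went the other way. The betaine carrier Slc6a12 was at 117, 99.7, 107 and 118 CPM in controls and 61.7, 40.7, 48.2 and 39.6 CPM in Yap1S5A-labelled livers, -1.20 ± 0.16 on the log2 scale (adjusted p = 1.2e-05). Its neighbour Slc6a13 was at 213, 197, 209.9 and 241 CPM and 106, 91.2, 138 and 93.95 CPM, a fold change of -0.99 ± 0.15 (adjusted p = 5.49e-05).

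The taurine carrier Slc6a6 and the creatine carrier Slc6a8 rose in liver. Slc6a6 was at 101, 115, 114 and 136 CPM in controls and 344, 277, 304 and 239 CPM in Yap1S5A-labelled livers, 1.34 ± 0.15 on the log2 scale (adjusted p = 3.25e-06). Its share of the summed level of the 36 genes went from 1.36% ± 0.133 to 7.22% ± 1.45. Slc6a8 was at 5.02, 5.91, 4.81 and 5.22 CPM in controls and 13.1, 13.1, 12.97 and 14.5 CPM in Yap1S5A-labelled livers, a rise of 1.37 ± 0.15 (adjusted p = 2.3e-06) with little spread in either group.

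Carriers of lysosomes and members without a settled role had small changes in liver. Slc36a4 rose by 0.90 ± 0.24 and Slc38a6 by 0.67 ± 0.14. Slc7a6os was at -0.58 ± 0.20, a call whose groups overlapped and which was lost without control replicate 3 (adjusted p = 0.080) or once a trend with gene length was taken out (0.38). The 6 members not called were Slc1a4, Slc36a1, Slc38a10, Slc38a7, Slc38a9 and Slc7a4, with log2 fold changes from -0.32 to 0.45. Among them are the lysosomal carriers Slc36a1, Slc38a7 and Slc38a9, the last known as an arginine sensor for mTORC1.

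Markers of other cell types moved in the same livers, where 33.3% of all genes tested rose and 30.3% fell. All 19 of 19 macrophage and monocyte markers rose, and their summed level was 179 to 313 CPM in GFP-labelled livers and 2967 to 3247 CPM in Yap1S5A-labelled livers. Of the stellate cell and fibroblast markers 8 of 13 rose and 1 fell, and of endothelial markers 9 of 12 rose and 1 fell. Of bile duct and progenitor markers 3 of 7 rose, of lymphocyte markers 4 of 6 rose, and all 15 of 15 cell cycle genes rose. Several cell cycle genes, among them Aurkb and Ccnb1, passed the filter on low counts through Yap1S5A-labelled livers alone, so they could not have been called lower. Means of Aurkb and Ccnb1 there were 7.38 and 6.92 CPM, at log2 fold changes of 7.45 and 7.36. Summed bile duct markers were 54.1 to 78.7 CPM and 1299 to 1685 CPM, and summed cell cycle genes 26.97 to 33.1 CPM and 302 to 361 CPM. Spp1 made up most of the bile duct sum in Yap1S5A-labelled livers, with a mean of 1409 CPM there, while Krt7, Krt19, Epcam and Prom1 were not called. Hepatocyte markers fell in 6 of 10 cases, with sums of 137400 to 156536 CPM in controls and 136675 to 156481 CPM in Yap1S5A-labelled livers. Most of these sums was Alb, which was not called, with means of 100349 CPM in controls and 114768 CPM in Yap1S5A-labelled livers. None of these lists had a gene at 0 in either liver group. Their part in the rises and falls of the carriers was not tested.

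**Figure D3:**
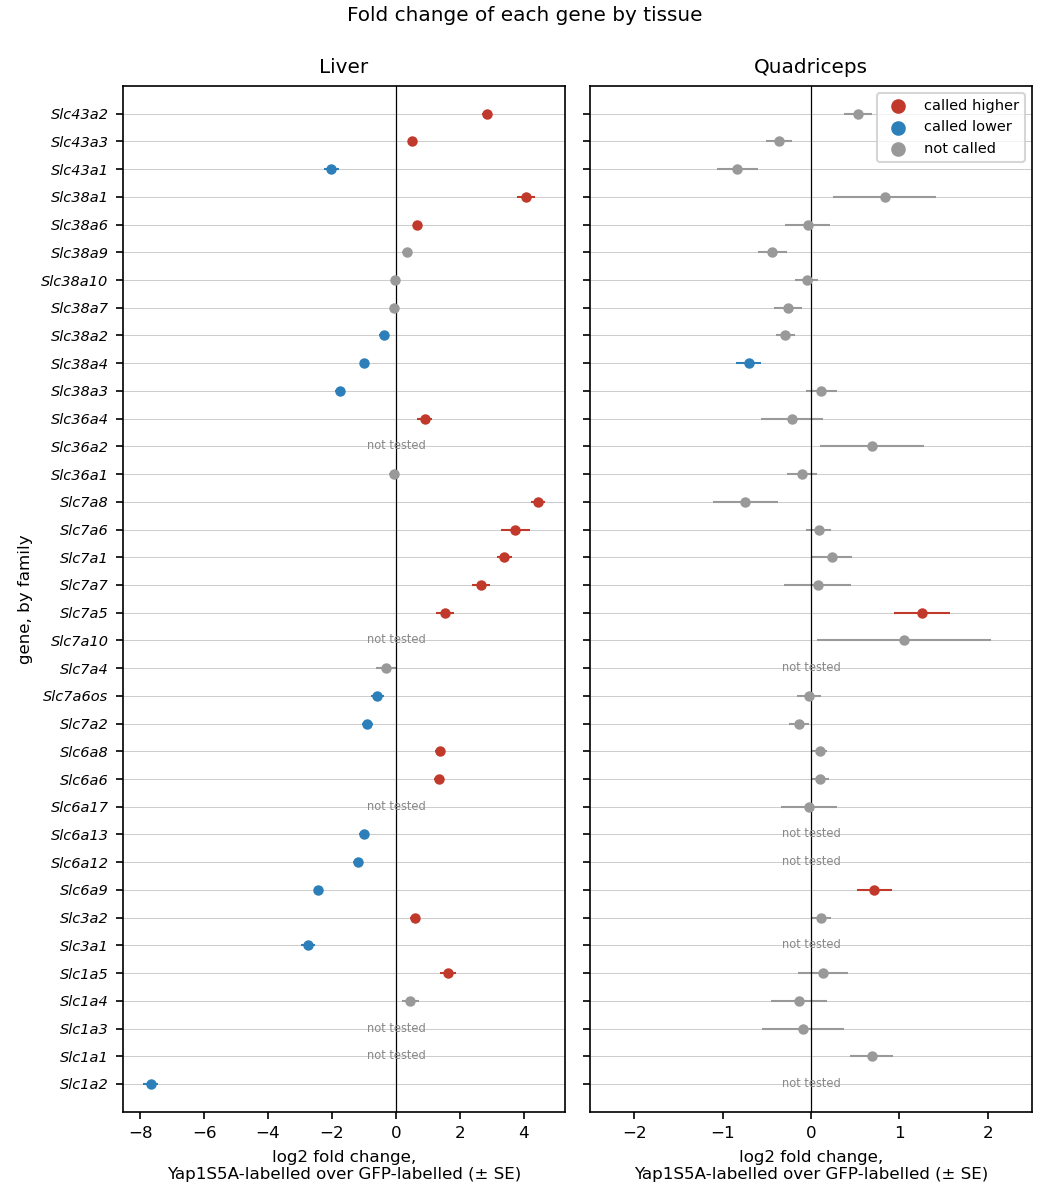
Log2 fold change, Yap1S5A-labelled over GFP-labelled libraries, with its SE, for each of the 36 genes in liver (left) and quadriceps (right), ordered by family; the axes of the panels differ. Red is called higher, blue called lower and grey not called by edgeR. Values run from -7.67 for Slc1a2 to 4.44 for Slc7a8 in liver and from -0.84 for Slc43a1 to 1.05 for the uncalled Slc7a10 and 1.26 for the called Slc7a5 in quadriceps.

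In quadriceps Slc38a4 fell and Slc6a9 and Slc7a5 rose. These 3 of 31 members tested, 9.68%, stood beside 9.03% of all 12121 genes tested, so the share of members was near that of all genes. Of these, 2 rose, beside 4.21%, and 1 fell, beside 4.82%, and the median log2 fold change was -0.02 among members and 0.00 among all genes. Libraries of the 2 groups did not overlap for 6 of the 31, beside 15.7%, and 1, Slc7a5, was called with a change of at least 2-fold, beside 1.87%. At an unadjusted p under 0.05 there were 9 members (29%), 4 higher and 5 lower, beside 23.6% of all genes, 11.8% higher and 11.7% lower. Slc1a2, Slc3a1, Slc6a12, Slc6a13 and Slc7a4 had too few counts for a test.

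Slc38a4 was the member called lower in muscle. It stood at 169, 133, 96.8 and 136 CPM in GFP-labelled quadriceps and 72.8, 84.7, 87.7 and 80.8 CPM in Yap1S5A-labelled quadriceps, a log2 fold change of -0.70 ± 0.14 (adjusted p = 0.0088). The third control library was the nearest to the Yap1S5A-labelled range, and the groups did not overlap. The glycine carrier Slc6a9 was at 8.67, 9.06, 6.73 and 6.03 CPM in controls and 9.41, 9.899, 15.9 and 14.6 CPM in Yap1S5A-labelled quadriceps, 0.72 ± 0.20 on the log2 scale (adjusted p = 0.042). The first and second Yap1S5A-labelled libraries were only just above the controls. B4galt2, whose exons share bases with Slc6a9 on the other strand, was at -0.03 ± 0.20 in quadriceps, with means of 3.85 CPM in controls and 3.78 CPM in Yap1S5A-labelled libraries. Slc7a5 was at 0.769, 2.04, 1.61 and 1.21 CPM in controls and 4.02, 3.73, 2.01 and 3.69 CPM in Yap1S5A-labelled quadriceps, 1.26 ± 0.32 (adjusted p = 0.024), with the third Yap1S5A-labelled library just under the second control.

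The calls of both rises in muscle lay near the threshold. Each was lost on leaving out any of 5 of the 8 libraries, while the log2 fold change in those fits was 0.57 to 0.78 for Slc6a9 and 1.05 to 1.21 for Slc7a5. Slc6a9 and Slc7a5 were no longer called without Yap1S5A-labelled replicate 4 (adjusted p = 0.10 and 0.054), without control replicate 1 (0.062 and 0.054) or without control replicate 4 (0.12 and 0.073). Slc6a9 was also lost without Yap1S5A-labelled replicate 3 (0.12) or control replicate 3 (0.096), and Slc7a5 without Yap1S5A-labelled replicate 1 (0.065) or 2 (0.062). With the replicate number as a block the values were 0.13 for Slc6a9 and 0.053 for Slc7a5. The fall of Slc38a4 held in each of these fits.

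Close to the threshold were both large neutral amino acid carriers of family Slc43, with opposite signs. Slc43a1 was at 33, 16.5, 21.9 and 19.3 CPM in controls and 8.75, 14.1, 15.5 and 12.2 CPM in Yap1S5A-labelled quadriceps, a log2 fold change of -0.84 ± 0.23 (adjusted p = 0.051). It was called lower with DESeq2, with upper-quartile scaling and in a fit of all 16 libraries. Slc43a2 was at 17.7, 23.98, 24.1 and 16.8 CPM and 37.1, 32.6, 24.1 and 25.2 CPM, 0.53 ± 0.16 (adjusted p = 0.053), with groups that touched without overlapping, and it was called higher with DESeq2. Both genes were named here after their values were seen.

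The heavy chain Slc3a2 and the glutamine carriers Slc38a2 and Slc1a5 gave no call in muscle. Slc3a2 was at 33.1, 32.8, 27.2 and 31.2 CPM in controls and 28.7, 33.2, 35.8 and 36.2 CPM in Yap1S5A-labelled quadriceps, 0.12 ± 0.11 (adjusted p = 0.56). Slc38a2 was at 158, 139, 130.5 and 135 CPM and 122, 94.1, 119 and 121 CPM, -0.29 ± 0.10 (adjusted p = 0.1), and its libraries did not overlap. Slc1a5 was at 17.8, 18.6, 30.9 and 23.4 CPM and 34.7, 29.6, 20.3 and 14.6 CPM, 0.14 ± 0.29 (adjusted p = 0.83), with Yap1S5A-labelled libraries on both sides of the controls. Slc3a1 had counts of 0, 0, 2 and 2 in control and 5, 4, 2 and 3 in Yap1S5A-labelled quadriceps. All 28 members not called lay between -0.84 and 1.05 on the log2 scale, and their 95% intervals reached from -1.47 to 2.98.

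**Figure D4:**
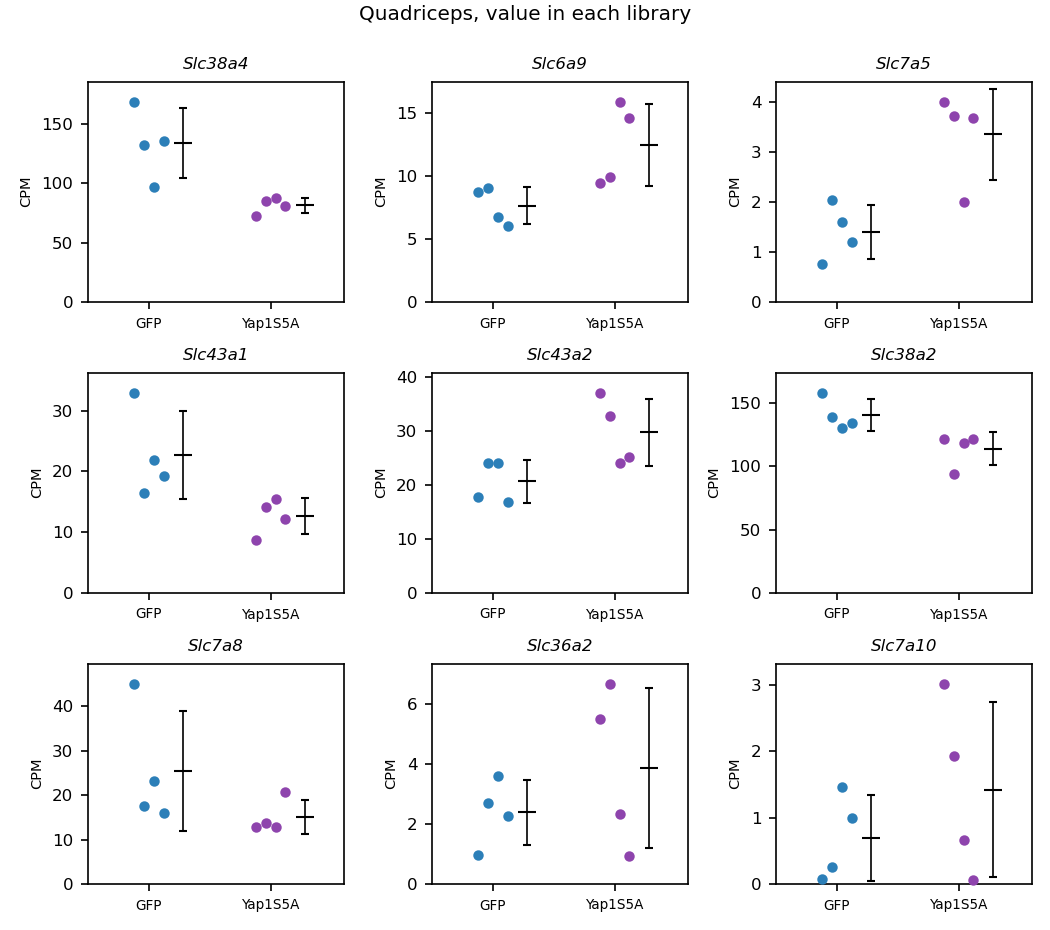
CPM in each quadriceps library for the called members Slc38a4, Slc6a9 and Slc7a5 and for 6 members that were not called. Each dot is a library, the black mark is the group mean with its SD (n = 4), and the axes start at 0. Slc38a4 shows 96.8 to 169 CPM in control and 72.8 to 87.7 CPM in Yap1S5A-labelled libraries, while Slc36a2 and Slc7a10 overlap.

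A pair of low members of muscle spread widely between libraries. Slc36a2, a proton-coupled carrier also known as a marker of brown fat cells, was at 0.979, 2.68, 3.59 and 2.27 CPM in GFP-labelled and 5.5, 6.67, 2.34 and 0.923 CPM in Yap1S5A-labelled quadriceps. Slc7a10, a light chain known from the surface of white fat cells, was at 0.0699, 0.255, 1.46 and 0.993 CPM and 3.03, 1.94, 0.670 and 0.0577 CPM. Summed adipocyte markers in the same order were 79.1, 152, 247 and 204 CPM in GFP-labelled and 478, 420, 164 and 145 CPM in Yap1S5A-labelled libraries. Yap1S5A-labelled libraries 1 and 2 were the highest for both genes and for the marker sum, and control library 1 was the lowest control for all 3. These genes were picked after their values were seen, and the part of fat tissue in the dissected muscle was not tested. Exons of Lrp3 on the other strand cover 19.2% of the exonic bases of Slc7a10. The mean of Lrp3 was 15.2 CPM in GFP-labelled and 11.7 CPM in Yap1S5A-labelled quadriceps, well above that of Slc7a10.

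Other markers moved in quadriceps too, where 4.21% of all genes tested rose and 4.82% fell. Of 15 macrophage and monocyte markers tested 12 rose, with sums of 77.7 to 145 CPM in GFP-labelled and 225 to 378 CPM in Yap1S5A-labelled libraries, where 1 of the 19 genes in the table was at 0, and 2 in controls. Of 12 stellate cell and fibroblast markers 2 rose and 4 fell, and of 11 skeletal muscle markers 3 fell, with sums of 250621 to 293520 CPM and 185885 to 234089 CPM. Their part in the 3 calls of muscle was not tested.

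Whether the vector difference itself differed between the tissues was tested as an interaction over all 16 libraries. Of 36 members 20 were called, beside 48% of all 13669 genes tested, 14 with a more positive log2 fold change in liver than in quadriceps, beside 25.5%, and 6 with a more negative one, beside 22.5%. The interaction uses the same libraries as the comparisons within each tissue, so it adds the test of the difference and no independent evidence. Among members whose sign differed between tissues Slc7a8 had the largest value, 5.19 ± 0.43 (adjusted p = 2.89e-08), with 4.44 in liver and an uncalled -0.74 in quadriceps. There it was at 45.2, 17.5, 23.2 and 16.03 CPM in controls and 12.9, 13.8, 12.8 and 20.7 CPM in Yap1S5A-labelled libraries.

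Slc6a9 was called in both tissues with opposite signs, -2.43 in liver and 0.72 in quadriceps, and its interaction was -3.14 ± 0.25 (adjusted p = 6.54e-09). For Slc38a3 the interaction was -1.87 ± 0.27 (adjusted p = 1.5e-05), with an uncalled 0.12 in quadriceps. The next were Slc36a4 at 1.11 ± 0.41 (adjusted p = 0.03), Slc43a3 at 0.86 ± 0.20 (adjusted p = 0.0014) and Slc38a9 at 0.78 ± 0.23 (adjusted p = 0.0079). The call of Slc36a4 was lost on leaving out any of 6 libraries, at adjusted p of 0.051 to 0.088, and that of Slc38a9 with the length trend taken out (0.56). Slc38a4, which fell in both tissues, had an interaction of -0.28 ± 0.23 (adjusted p = 0.32), and Slc7a5, which rose in both, 0.28 ± 0.45 (adjusted p = 0.64). No difference between the tissues was thus shown for either in this fit, but with the length trend taken out the interaction of Slc38a4 was called lower.

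Other amino acid genes, from lists chosen with earlier results of these data known, were counted in the same fits, where 33.3% of all genes rose and 30.3% fell in liver and 4.21% and 4.82% in quadriceps. Of 14 other amino acid and peptide carriers 2 rose in liver and 8 fell, with a median log2 fold change of -0.36. Slc15a3, a lysosomal carrier of histidine and small peptides known from immune cells, was at 3.90 ± 0.21 and the cysteine carrier of lysosome-related organelles Mfsd12 at 0.86 ± 0.17. The mitochondrial glutamate carrier Slc25a22 was at -2.51 ± 0.17, the aromatic amino acid carrier Slc16a10 at -2.51 ± 0.12 and the mitochondrial branched-chain amino acid carrier Slc25a44 at -1.61 ± 0.17. In quadriceps none of 13 was called by edgeR or DESeq2, and 4 had an unadjusted p under 0.05, 1 higher and 3 lower.

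Of 9 genes for partners and trafficking of carriers 6 rose in liver and 2 fell (median 0.55). Among the 6 were the kinases Sgk1 at 2.46 ± 0.14 and Sgk3 at 1.47 ± 0.17, known to keep carriers at the surface, and the ubiquitin ligase Nedd4l at 0.72 ± 0.15, known to remove them. Arrdc3 was at -0.90 ± 0.20 and Txnip at -0.38 ± 0.14. In quadriceps the chaperone Bsg was the 1 gene of 8 called, at -0.56 ± 0.09.

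Of 34 genes that report amino acids to mTORC1, 15 fell in liver and 4 rose, with a median of -0.21. The small GTPase gene Rragd rose by 3.28 ± 0.24, Gatsl2 by 1.05 ± 0.25 and Sesn3 by 0.57 ± 0.23. Of the scaffold subunits that hold the GTPases on the lysosome, Lamtor4 was at -1.41 ± 0.23 and Lamtor5 at -1.07 ± 0.22, and Fnip2 was at -1.09 ± 0.16. In quadriceps 2 of 35 fell, Gatsl2 at -0.44 ± 0.11 and Rragd at -0.36 ± 0.10.

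The amino acid response through the kinase Gcn2 and the factor Atf4 had genes that moved either way in liver, 7 of 25 higher and 4 lower (median 0.18), neither share above that of all genes, 33.3% and 30.3%. The serine synthesis gene Psat1 was at 4.93 ± 0.33, Vldlr at 2.80 ± 0.27 and the asparagine synthetase Asns at 1.31 ± 0.50. The mitochondrial serine hydroxymethyltransferase Shmt2 was at -1.38 ± 0.12, the alanyl-tRNA synthetase Aars at -1.18 ± 0.14 and the transcription factor gene Cebpb at -1.11 ± 0.21. With a trend in gene length taken out, 11 were higher and 7 lower. The shares of all genes above come from the fit without that step, so they cannot be set beside these 2 counts. In quadriceps 2 of 25 rose, Ppp1r15a at 0.46 ± 0.11 and Atf5 at 0.37 ± 0.11.

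Several members lie side by side in the genome (build mm10, as deposited). On chromosome 15 the system A genes Slc38a1 (96571418 to 96642913), Slc38a2 (96687392 to 96699698) and Slc38a4 (96994823 to 97055956) follow each other on the minus strand with gaps of 44.5 and 295.1 kb, and their liver changes were 4.07, -0.38 and -0.98. Slc43a1 and Slc43a3 are 73.1 kb apart on chromosome 2, with -2.02 and 0.49. Slc7a6 and Slc7a6os, 1.7 kb apart on opposite strands of chromosome 8, were at 3.74 and -0.58. Slc38a1 and Slc38a2, Slc43a1 and Slc43a3, and Slc7a6 and Slc7a6os thus differed in sign, whereas Slc38a2 and Slc38a4 both fell, Slc6a13 and Slc6a12 on chromosome 6 (gap 9.0 kb) both fell, and Slc7a7 and Slc7a8 on chromosome 14 (gap 304.5 kb) both rose.

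Promoters were read for letters that known regulators bind, as a description. Of the 36 genes 26 had an entry in the RefSeq promoter table (GRCm38.p6), 22 of them with a start within 100 bases of the deposited gene start, and the 250 bases before each start were searched on both strands. The core of the amino acid response element that Atf4 binds, TGATGNAA, was in 4.55% of the 44 promoters of members, those of Slc7a7, beside 3.45% of all 32851 promoters. The core that TEAD factors, the DNA-binding partners of Yap1, recognise, GGAATG, was in 11.4%, in Slc36a1, Slc43a1, Slc43a2, Slc6a13 and Slc7a7, beside 12.6% of all promoters. The sequences of Slc7a8 and Slc43a2 are shown because the first had the largest rise in liver and the second, also among the largest, holds the TEAD core, in capitals and on the strand opposite to the gene.
Slc7a8, chr14:54781887-54782136, minus strand: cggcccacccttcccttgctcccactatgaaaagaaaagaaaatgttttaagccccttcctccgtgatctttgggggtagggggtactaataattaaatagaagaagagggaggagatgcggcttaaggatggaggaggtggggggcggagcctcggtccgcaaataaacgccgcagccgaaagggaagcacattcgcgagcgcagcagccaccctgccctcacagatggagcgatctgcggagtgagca
Slc43a2, chr11:75531444-75531693, plus strand: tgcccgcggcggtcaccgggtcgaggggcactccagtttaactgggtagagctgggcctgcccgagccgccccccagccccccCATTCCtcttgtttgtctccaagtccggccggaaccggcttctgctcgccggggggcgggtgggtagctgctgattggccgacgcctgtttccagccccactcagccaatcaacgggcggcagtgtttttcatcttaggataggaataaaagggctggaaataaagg
The capitals start 167 bases before the annotated start of Slc43a2, and the 250 bases of Slc7a8 hold neither core.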

How the data were processed

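Total RNA libraries of bulk liver and quadriceps (4 per tissue and vector) were prepared by the Ion Total RNA-Seq v2 kit, per the labels' protocols. FastQC 0.11.5, STAR 2.4.2a and featureCounts of Subread 1.5.0 on build mm10 are named in the submitters' processing notes; settings, strand use and the filter on genes are not stated there. As deposited, values are whole-number raw read counts for each gene, beside the authors' gene length in bases. Members and lists were chosen with earlier results of these data known.

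Counts were tested over all genes with edgeR 4.0.16 (R 4.3.3): filterByExpr, TMM, robust glmQLFit and glmQLFTest, Benjamini-Hochberg adjustment, threshold 0.05, each tissue fitted alone, the interaction over all 16 libraries. The SE is the log2 fold change divided by the root of F. DESeq2 1.42.0, other scalings, no filter, a length trend, a joint fit, a replicate block and leaving out each library were alternatives, and the code was tested on simulated data. Called members with a mean of at least 5 CPM in 1 group are given in full, up to 10 per direction and tissue, with Slc3a1, Slc3a2, Slc7a5, Slc38a2 and Slc1a5 always; the 5 highest levels per tissue, the 6 largest interactions of opposite sign and up to 3 genes per list and direction are named.

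The authors' accompanying sheet repeats sample IDs across the tissues of a vector, and these were read as pairs from 1 mouse. Correlations of their deviations from group means were -0.036 to 0.125, so the pairing rests on the IDs. No label states that replicates came from separate mice; if they did not, p-values cover the spread of these samples alone, possibly a technical one. Replicate counts differed beyond sampling noise (chi-square per degree of freedom 12.2 to 63.7), and none were merged. Reads carry no molecular identifiers. Rn45s, a ribosomal RNA gene, held 0.692% to 16.8% of counts.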

Additional observations from a re-analysis of the deposited data

Results flagged for a closer look

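Of 115 sets of 4 libraries with a mean of at least 1 CPM, 7 had a library whose gap to its nearest neighbour passed Dixon's 95% critical value, and chance flags about 1 in 20. In Yap1S5A-labelled quadriceps Slc7a8 was at 20.7 CPM in replicate 4 against 12.8 to 13.8 in the others, and Slc38a2 at 94.1 in replicate 2 against 119 to 122. In the same group Slc7a2 was at 70.1 CPM in replicate 1 against 84.4 to 86.1, Slc7a5 at 2.01 in replicate 3 against 3.69 to 4.02, and Slc36a4 at 0.635 in replicate 4 against 1.27 to 1.38. Slc43a1 was at 5.30 CPM in replicate 1 of GFP-labelled livers against 7.23 to 7.47, and Slc6a8 at 14.5 in replicate 4 of Yap1S5A-labelled livers against 12.97 to 13.1.

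For 20 members the vector difference differed between tissues by the edgeR interaction test, with adjusted p from 6.54e-09 to 0.036. Positive values mean a log2 fold change that was more positive in liver than in quadriceps, not a larger change. They were 5.19 for Slc7a8, 3.65 for Slc7a6, 3.23 for Slc38a1, 3.14 for Slc7a1, 2.57 for Slc7a7, 2.31 for Slc43a2, 1.48 for Slc1a5, 1.26 for Slc6a8, 1.23 for Slc6a6, 1.11 for Slc36a4, 0.86 for Slc43a3, 0.78 for Slc38a9, 0.71 for Slc38a6 and 0.46 for Slc3a2. Negative values, more negative in liver, were -6.81 for Slc1a2, -4.31 for Slc3a1, -3.14 for Slc6a9, -1.87 for Slc38a3, -1.19 for Slc43a1 and -0.76 for Slc7a2. In quadriceps Slc1a2 had 7 counts in all in controls and 4 in Yap1S5A-labelled libraries, and Slc3a1 had 4 and 14, so their interactions have large SEs of 1.56 and 0.85.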

How the results depend on the processing

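Counts of members called in liver and between control tissues stayed within 1.5 times in every alternative run. Leaving out 1 library gave 14 to 15 higher and 9 to 11 lower in liver, 11 to 14 and 6 to 8 for the interaction, 16 to 18 and 11 to 12 between tissues, and 0 to 2 higher and 1 to 2 lower in quadriceps. The 0 came without Yap1S5A-labelled quadriceps replicate 4 or control replicate 1 or 4, each with 4 members higher at an unadjusted p under 0.05 in edgeR. Members called lower in quadriceps were 2 with upper-quartile factors, DESeq2 or the joint fit, which add Slc43a1. With a length trend taken out 10 interactions were lower, adding Slc38a10, Slc38a2, Slc38a4 and Slc6a13. Summed levels ranged over left-out libraries from 1346 to 1420 CPM per kb in GFP-labelled and 642 to 677 in Yap1S5A-labelled livers, and from 223 to 233 and 206 to 213 in quadriceps. With upper-quartile factors they were 1282 in GFP-labelled livers and 221 in Yap1S5A-labelled quadriceps.

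Signs turned in small, uncalled values. Slc1a5 in quadriceps was -0.070 without Yap1S5A-labelled replicate 1 and between that value and 0.32 over the left-out libraries. Slc38a2 between tissues was 0.13 with the length trend, 0.00092 without control liver replicate 1 and 0.013 without control quadriceps replicate 1, down to -0.088 without control quadriceps replicate 3. Slc3a2 between tissues was -0.011 with the length trend, -0.15 with upper-quartile factors, -0.039 without control liver replicate 2 and -0.017 without control quadriceps replicate 3. Slc7a5 in the interaction was -0.083 with the length trend. The cause was not tested.

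With the replicate block 0 members were called higher in quadriceps, where edgeR gave 4 higher at an unadjusted p under 0.05 and Slc6a9 and Slc7a5 had been called, and Slc38a6 lost its interaction (adjusted p = 0.067); it changed no other call of a member. Between vectors the replicates share only a number, with correlations of -0.179 to 0.017 in liver and -0.215 to 0.082 in quadriceps. Over all genes, leaving out 1 quadriceps library gave 277 to 464 higher and 325 to 560 lower calls, from 510 and 584, the fewest without GFP-labelled replicate 4.

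The interaction of Slc3a2, 0.46, was lost with DESeq2 (adjusted p = 0.088), RLE factors (0.090), the length trend (0.16, adjusted p = 0.47), and without Yap1S5A-labelled liver replicate 1 (0.11) or 2 (0.24, adjusted p = 0.28), control liver replicate 1 (0.066) or Yap1S5A-labelled quadriceps replicate 1 (0.051). That of Slc38a6, 0.71, was lost with the length trend (0.40, adjusted p = 0.22), RLE factors (0.0698) and without any of 10 libraries (0.53 to 0.70, adjusted p of 0.054 to 0.13), and that of Slc38a9 with the length trend (0.56). Depth limits Slc1a1, Slc1a3, Slc36a2, Slc6a17 and Slc7a10 in liver, at 1 to 39 counts per group.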
